A study of Mus musculus with 4 samples.

Results

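The proteasome genes described here are the genes whose symbols begin with Psma to Psmg and a number. The RefSeq gene table lists 57 such mouse genes, and 50 of them had a probe, of 23451 genes with a value on the arrays. They were set out by role: 4 immunoproteasome genes, 31 constitutive subunits (14 of the 20S core and 17 of the 19S particle), 8 assembly factors and regulators, 2 further activators, 2 core subunits known from single tissues, and 3 genes that matched by symbol and were given no role. The 7 genes with no probe were 6 pseudogenes and Psme2. The study asked how LA, given in the labels as L-(+)-LA and in the study's title as lactate, affects dendritic cells that respond to lipopolysaccharide (LPS). Femur marrow came from C57BL/6J males and was turned into dendritic cells by GM-CSF at 10 ng/ml, in MEM that held 10% FBS, up to collection on day 6. Their age is not given in the sources used here. The 4 groups were cells kept without stimulation (medium), cells with 100 ng/ml ultrapure LPS, cells with 20 mM LA, and cells with both agents at these doses; the treatments lasted 4 h, and no time is given for medium. All 4 groups were wild type, and each is 1 RNA sample on 1 one-colour array, with no replicate. No difference below therefore has a test, and precision is limited by the small number of arrays. In such bulk samples, fewer cells of a type and less RNA per cell cannot be told apart.

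The proteasome degrades proteins that are tagged with ubiquitin. Its 20S core is a barrel of alpha and beta rings in which the beta subunits Psmb5, Psmb6 and Psmb7 cut the substrate, and its 19S particle recognises, unfolds and feeds the tagged protein into the barrel. Interferons and inflammatory signals induce the immunoproteasome, in which Psmb8, Psmb9 and Psmb10 take the places of Psmb5, Psmb6 and Psmb7, and the activator PA28 made of Psme1 and Psme2. In dendritic cells these forms supply peptides for MHC class I molecules.

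Promoter sequences are shown for 3 immunoproteasome genes and 1 constitutive subunit, because they show which of these genes carry the letters of an interferon-response motif. They come from RefSeq promoter windows of GRCm38.p6, each printed from 250 bases before the transcript start to 30 bases after it, 5′ to 3′ along the gene. Capitals mark a match to the interferon-stimulated response element (ISRE, searched as GAAA, any 2 bases and GAAA again) or to the gamma-activated site (GAS, searched as TTCNNNGAA), on either strand. The windows lie at chr14:55578244-55578523 on the plus strand for Psme1, chr17:34197945-34198224 on the plus strand for Psmb8, chr17:34187301-34187580 on the minus strand for Psmb9 and chr11:97703184-97703463 on the plus strand for Psmb3.
Psme1: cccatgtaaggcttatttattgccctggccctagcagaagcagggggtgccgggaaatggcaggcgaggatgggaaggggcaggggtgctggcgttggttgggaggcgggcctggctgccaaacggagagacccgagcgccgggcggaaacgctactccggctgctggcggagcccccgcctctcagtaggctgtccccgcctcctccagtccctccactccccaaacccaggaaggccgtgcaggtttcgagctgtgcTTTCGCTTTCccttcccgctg
Psmb8: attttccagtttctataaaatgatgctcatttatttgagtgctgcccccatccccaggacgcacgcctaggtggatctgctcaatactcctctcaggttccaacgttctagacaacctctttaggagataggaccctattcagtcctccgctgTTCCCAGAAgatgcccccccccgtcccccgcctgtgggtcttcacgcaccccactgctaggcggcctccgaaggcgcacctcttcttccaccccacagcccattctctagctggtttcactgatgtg
Psmb9: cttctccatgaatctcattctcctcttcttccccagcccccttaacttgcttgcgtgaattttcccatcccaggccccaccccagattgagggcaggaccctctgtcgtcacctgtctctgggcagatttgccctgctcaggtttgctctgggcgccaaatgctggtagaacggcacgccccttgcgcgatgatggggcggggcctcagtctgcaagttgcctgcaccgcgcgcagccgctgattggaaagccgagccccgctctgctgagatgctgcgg
Psmb3: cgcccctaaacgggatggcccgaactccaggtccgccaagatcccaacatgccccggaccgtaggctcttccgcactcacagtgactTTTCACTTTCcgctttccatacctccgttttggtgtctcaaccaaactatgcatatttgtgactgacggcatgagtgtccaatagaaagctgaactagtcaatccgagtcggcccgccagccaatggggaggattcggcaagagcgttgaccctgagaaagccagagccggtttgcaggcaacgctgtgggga

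Of the proteasome genes with a role, 40 matched the table with 43 windows; motifs were searched over 250 bases before the start and 50 after it. The immunoproteasome genes searched here included Psme2. An ISRE match occurred in 1 of 6 immunoproteasome windows, that of Psme1, against 3.44% of all 32851 windows. A GAS match occurred in 1 of the 6, that of Psmb8, against 8.30% of all windows. No NF-kB motif (named only, both strands) and no antioxidant response element (ARE, TGACNNNGC, both strands) was found in them, against 8.46% and 12.4% of all windows. Among the 12 windows of 20S core subunits, 1 held an ISRE match (Psmb3, printed above), 2 an NF-kB match (Psma6 and Psma7) and 2 an ARE match (Psmb5 and Psmb6). Among the 15 windows of the 19S particle, ISRE matched in Psmd4, GAS in Psmd2, NF-kB in Psmd11, Psmd12 and Psmd13, and ARE in Psmc6 and Psmd12. Among the 7 windows of assembly factors and regulators, ISRE matched in Psmd9 and Psmg4, GAS in Psmg1 and ARE in Psmd9. In the 2 windows of the further activators, NF-kB and ARE matched in Psme4. The Psmb9 window overlaps that of Tap1 by 275 bases on the opposite strand. A match describes these letters only and shows no binding.

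On each array 56.5% to 64.1% of the 59305 spots that are not controls were well above background, and no spot was saturated. Spots of probes printed 10 times had a median SD of 0.051 to 0.054 log2 units within an array. The SD between different probes of a gene was larger, with medians over all genes of 0.23 for LPS against medium, 0.24 for LA against medium and 0.31 for LPS with LA against LPS; for the proteasome genes these were 0.11, 0.16 and 0.20. These errors cover spots and probes, not cultures or animals. All 11 listed dendritic cell markers were well above background on every array, as were all 8 neutrophil and all 8 macrophage markers. The summed level of the dendritic cell markers was 285 in medium; it was 335 after LPS, 220 after LA and 209 after both agents, in units of an array's 75th percentile. The same sums were 111, 160, 98.0 and 93.7 for macrophages, 576, 668, 723 and 739 for neutrophils, and 47.5, 76.9, 94.4 and 99.97 for the 6 markers of mast cells, basophils and eosinophils, of which Fcer1a was not well above background in medium. Such sums rest mostly on the brightest markers, for neutrophils S100a9 and Csf3r. With LPS the neutrophil markers had a median log2 difference of 0.01. None was at least 1.5-fold higher and 3 were lower (Cxcr2, Elane and Mpo), where 15.8% and 18.1% of all genes were. With LA alone, 6 of 11 dendritic cell markers were at least 1.5-fold lower and 1 (Ciita) higher. Of 8 neutrophil markers 0 were lower and 4 higher, where 10.8% and 11.2% of all genes were. Between LPS with LA and LPS, 6 of 11 dendritic cell markers were at least 1.5-fold lower and 2 higher. Of 8 neutrophil markers 0 were lower and 5 higher there, and of 8 macrophage markers 5 and 1. Of all genes, 21.8% were lower and 22.2% higher. The dendritic cell and neutrophil medians were -1.31 and 0.96 in that comparison. Lymphocyte markers summed to between 1.45 and 1.74 with Ms4a1 and Ncr1 not above background, erythroid markers to between 1.21 and 1.28 with Hbb-b1 not above background, and stromal markers to between 1.70 and 2.60 with Cdh5 not above background. The part of these other cells in the results below was not tested.

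The immunoproteasome genes were highest on the LPS array and lowest, all 4 of them, on the array with LPS and LA together. A level here is the log2 signal of a gene's brightest probe over the 75th percentile of its own array, and a difference is between 2 arrays on that log2 scale. Psmb9, the subunit that takes the place of Psmb6, had a level of 4.82 in medium, 5.93 with LPS, 4.17 for LA and 3.79 for both agents. It was thus 2.16-fold higher with LPS than in medium and 4.39-fold lower when LA was added to LPS. Psmb8, which takes the place of Psmb5, had levels of 3.95, 4.83, 3.09 and 2.97 in the same order. Its LPS array stood above the other 3, and both LA arrays stood below medium, with a 3.65-fold lower signal for LPS with LA than for LPS. Psmb10, which takes the place of Psmb7, had levels of 2.23, 3.06, 2.02 and 1.84. Its difference between LPS with LA and LPS was -1.22, a 2.33-fold lower signal.

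Psme1, the alpha subunit of PA28, had levels of 6.38 in medium, 7.14 with LPS, 5.92 for LA and 5.72 for both. This is a 1.70-fold higher signal with LPS and a 2.69-fold lower one when LA was added to LPS. Its partner Psme2 had no matched probe, but 2 probes matched Psme2b, a near copy of Psme2 whose older name marks it as a pseudogene. The brighter Psme2b probe had levels of 4.28, 5.76, 3.61 and 3.57, and the other one 3.57, 4.77, 2.59 and 2.45. Both followed the order of the immunoproteasome genes, with differences of 1.48 and 1.2 for LPS against medium. Which of the 2 copies these probes read was not tested, since the probe sequences were not used here.

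**Figure D1:**
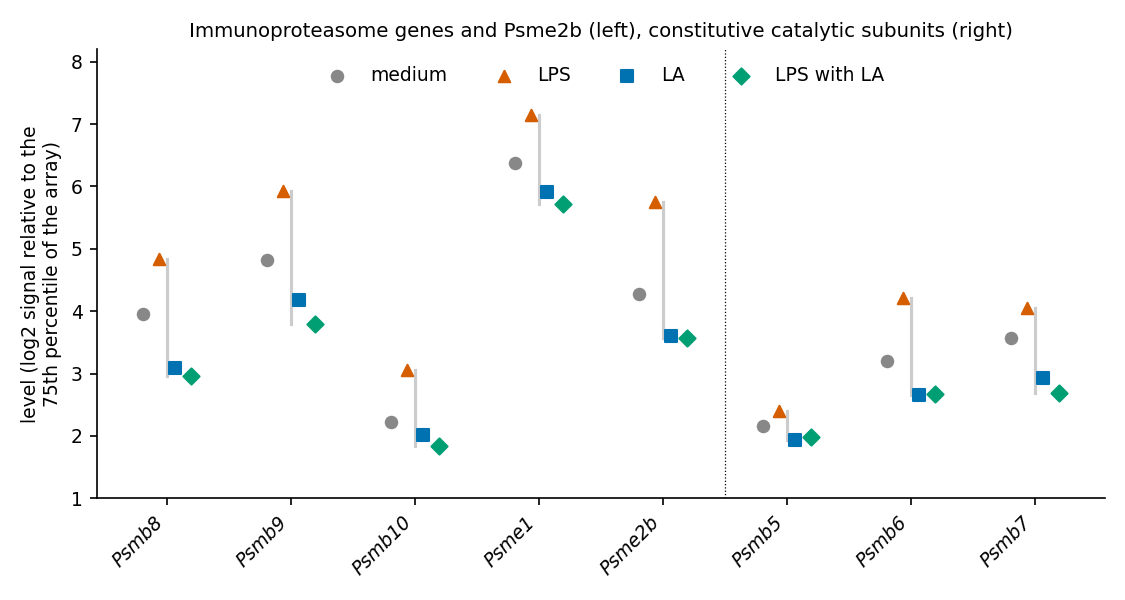
Level of the immunoproteasome genes and Psme2b and of the 3 constitutive catalytic subunits on the 4 arrays (y axis, log2 signal over that array's 75th percentile; 1 point per array, no error bar because each group is 1 array). The LPS point lies highest for all 8 genes, and for Psmb5 it lies only 0.24 above medium.

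Set against all genes, the LPS difference of Psmb9 (1.11) was larger than that of 93.1% of measured genes, and those of Psmb8 (0.88), Psmb10 (0.83) and Psme1 (0.76) were larger than those of 90.3%, 89.4% and 88.2%. At least 1.5-fold higher signal with LPS was found for 4 of 4 immunoproteasome genes, where 15.8% of all 13592 measured genes passed that fold in that direction. That count was 3 of 4 on the authors' deposited values, with Psme1 at 0.53, where 10.4% of all genes passed. With quantile normalization it was 1 of 4 (Psmb9), where 14.5% of all genes passed. Psmb8, Psmb10 and Psme1 were then at 0.58, 0.58 and 0.57, just under the threshold. Between LPS with LA and LPS, 4 of 4 were at least 2-fold lower, where 12.5% of 13631 genes were. With quantile normalization 2 of 4 were, with Psmb10 at -0.86 and Psme1 at -0.93, where 10.7% of all genes were. On the authors' deposited values 3 of 4 were, with Psmb10 at -0.80, where 6.89% of all genes were. The median of the 4 genes was 0.86 for LPS against medium and -1.65 for LPS with LA against LPS; over all genes both medians were 0.00.

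LA alone gave lower values of the immunoproteasome genes by smaller amounts. The differences from medium were -0.86 for Psmb8, -0.64 for Psmb9, -0.46 for Psme1 and -0.21 for Psmb10, with a median of -0.55 beside 0.02 over all genes. Psmb8 and Psmb9 passed 1.5-fold, a fold that 10.8% of 14554 genes passed in that direction. Only 1 of 4 (Psmb8) did so with quantile normalization and on the authors' deposited values, where 10.7% and 7.02% of all genes did. The medians of the 4 genes were then -0.32 and -0.40. The -0.21 of Psmb10 was under the 0.24 median SD between probes of a gene. In the presence of LA, LPS brought no higher value: LPS with LA minus LA was -0.12 for Psmb8, -0.38 for Psmb9, -0.18 for Psmb10 and -0.20 for Psme1. None of these 4 reached 1.5-fold, where 5.35% of 14903 genes did so downwards.

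The 31 constitutive subunits had medians of the same sign and smaller size, and the 20S core stood apart from the 19S particle. The median of the constitutive subunits was 0.29 for LPS against medium, -0.25 for LA against medium and -0.81 for LPS with LA against LPS. The immunoproteasome median minus the constitutive one was 0.56 for LPS against medium, -0.30 for LA against medium and -0.83 for LPS with LA against LPS. For LPS against medium it was 0.29 when only the 20S core was taken as constitutive. Among proteasome genes of every role, 15 of 47 measured were at least 1.5-fold higher with LPS and 0 at least 1.5-fold lower, where 15.8% and 18.1% of all genes were. This split depends on the scaling: on the authors' deposited values, scaled by another factor per array, 9 were higher and 5 lower, where 10.4% and 28.4% of all genes were. Between LPS with LA and LPS, 26 of 47 were at least 1.5-fold lower and 2 higher, beside 21.8% and 22.2% of all genes. At least 2-fold higher with LPS were 6 (Psme2b, Psma6, Psmd10, Psmb9, Psma5 and Psmb6) and lower 0, where 8.14% and 7.5% of all genes were; 17 were at least 2-fold lower when LA was added to LPS and 0 higher, where 12.5% and 11.5% were. With the authors' deposited values, 17 were at least 1.5-fold lower and 6 higher between LPS with LA and LPS, where 12% and 41.1% of all genes were. At 2-fold, those values gave 1 member higher with LPS and 9 lower when LA was added to LPS, where 5.53% and 6.89% of all genes were.

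**Figure D2:**
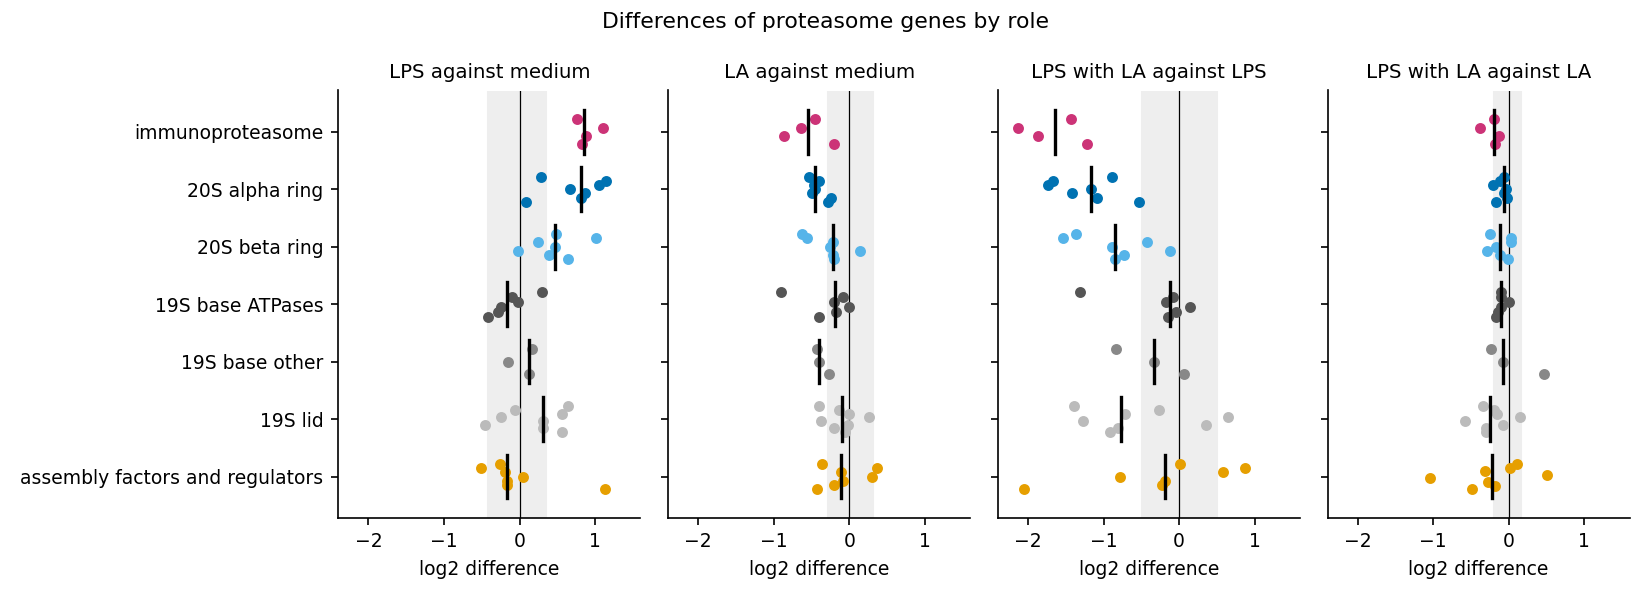
Differences of the proteasome genes by role for the 4 comparisons of arrays (1 panel per comparison; x axis, log2 difference; y axis, role; 1 point per gene, black bar the median of the role; height within a row has no meaning). The grey band spans the quartiles of all measured genes; the immunoproteasome genes lie above it with LPS and below it between LPS with LA and LPS, whereas the 19S ATPases have medians of -0.17 and -0.12 there.

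Of the 7 alpha ring subunits, which form the gated ends of the barrel, 5 were at least 1.5-fold higher with LPS, where 15.8% of all genes were. This count depends on the processing. Over the alternatives, the LPS differences of Psma2, Psma3 and Psma4 went down to 0.50, 0.57 and 0.37, under that fold. Those of Psma5 and Psma6 went down to 0.72 and 0.82, still above it. Psma6 had levels of 3.99 in medium, 5.13 with LPS, 3.58 for LA and 3.46 for both, and was 2.21-fold higher with LPS and 3.18-fold lower when LA was added to LPS. Psma5 had levels of 3.19, 4.24, 2.72 and 2.51, which puts its LPS array 1.05 above medium. The LPS differences of Psma3, Psma2 and Psma4 were 0.87, 0.82 and 0.67, and when LA was added to LPS these genes differed by -1.42, -1.09 and -1.17. Psma7 (0.28) and Psma1 (0.09) differed little from medium with LPS. Adding LA to LPS gave -0.88 for Psma7 and -0.54 for Psma1. The alpha ring median was 0.82 for LPS against medium and -1.17 for LPS with LA against LPS.

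In the beta ring, the 3 catalytic subunits differed among themselves. Psmb6, which cleaves after acidic residues, had levels of 3.21, 4.22, 2.65 and 2.68, a 2.01-fold higher signal with LPS. Psmb7, which cleaves after basic residues, had levels of 3.56, 4.05, 2.93 and 2.69, and its LPS difference was 0.49. Psmb5, which cleaves after hydrophobic residues, had levels of 2.16, 2.40, 1.94 and 1.98, and stayed within 0.24 of medium on every array. When LA was added to LPS the differences were -1.54 for Psmb6, -1.37 for Psmb7 and -0.42 for Psmb5, and on the authors' deposited values that of Psmb5 was 0.00. Of the structural beta subunits, Psmb1 (0.64), Psmb4 (0.47) and Psmb2 (0.39) were higher with LPS, and their differences between LPS with LA and LPS were -0.85, -0.89 and -0.72. Psmb3 stood apart, with levels of 2.97, 2.95, 3.12 and 2.83 and differences between -0.29 and 0.15. Its promoter, like that of Psme1, holds an ISRE match, shown above. Over the whole 20S core, 7 of 14 subunits were at least 1.5-fold higher with LPS and 11 of 14 at least 1.5-fold lower when LA was added to LPS, where 15.8% and 21.8% of all genes were. On the authors' deposited values these were 4 and 7 of 14, where 10.4% and 12% of all genes were. With quantile normalization they were 3 and 8, where 14.5% and 19.3% of all genes were.

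The 19S particle had medians nearer to 0 than the core, -0.02 for LPS against medium and -0.27 for LPS with LA against LPS, beside 0.56 and -0.99 for the core, and the median of the 20S core minus that of the 19S particle was 0.58 and -0.72. The sign of the -0.27 depends on the scaling: Psmd7, the subunit that gives this median, was at 0.15 and Psmd2 at 0.092 on the authors' deposited values, whose scaling shifts the median of all genes by 0.43 in that comparison. The comparison of core and 19S particle was chosen after its values were seen. The base ATPases, the ring that unfolds substrates, had a median of -0.17 with LPS. Psmc1 had levels of 3.46 in medium, 3.05 with LPS, 3.07 for LA and 2.90 for both, so it was lower on all 3 treated arrays. Psmc2, Psmc3 and Psmc5 differed from medium with LPS by -0.28, -0.24 and -0.10, though the mean of all probes of Psmc3 gave 0.02. Psmc6 was the exception, with levels of 1.67, 1.96, 0.76 and 0.65, and with differences of -0.91 for LA against medium and -1.31 for LPS with LA against LPS. The probes of Psmc4 disagreed: the brighter one differed by -0.02 with LPS and by -0.18 when LA was added, the other by 1.18 and -1.29. The remaining base subunits include Psmd4, a ubiquitin receptor, which differed by 0.17 with LPS and by -0.84 between LPS with LA and LPS, and the scaffold subunits Psmd1 and Psmd2, which differed there by 0.07 and -0.33. In that comparison the other probes of Psmd1 gave -0.63 and -0.32, and the other probe of Psmd2 gave 0.10.

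The lid, which holds the deubiquitinase Psmd14, was divided. Psmd8 had levels of 0.64, 1.29, 0.24 and -0.11. It alone of the 17 subunits of the 19S particle passed 1.5-fold higher with LPS and 0 lower, where 15.8% and 18.1% of all genes did. On the authors' deposited values 0 were higher and 2 lower, where 10.4% and 28.4% of all genes were. Quantile normalization gave the same 2 counts, where 14.5% and 19.5% of all genes were. With scaling to the median 3 were higher and 0 lower, where 17.6% and 16% of all genes were. The LPS differences of Psmd6, Psmd11, Psmd14 and Psmd12 were 0.57, 0.56, 0.31 and 0.30. When LA was added to LPS, Psmd8 differed by -1.39, Psmd14 by -1.27, Psmd11 by -0.92, Psmd12 by -0.81 and Psmd6 by -0.72. Psmd3 and Psmd13 went the other way: Psmd3 had levels of 2.99, 2.75, 3.25 and 3.40, and Psmd13 of 2.98, 2.52, 2.96 and 2.88. Psmd3 was thus 0.65 higher with both agents than with LPS, and Psmd13 0.35 higher. The other probe of Psmd3 differed by -0.82 with LPS and by 0.98 when LA was added to LPS. Psmd7 differed by -0.06 and -0.27 in these comparisons. Of the whole 19S particle, 7 of 17 were at least 1.5-fold lower and 1 higher between LPS with LA and LPS, where 21.8% and 22.2% of all genes were. On the authors' deposited values 3 were lower and 2 higher, where 12% and 41.1% of all genes were.

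Of the assembly factors and regulators, Psmd10 (gankyrin, a chaperone of the 19S base) had levels of 1.45 in medium, 2.58 with LPS, 1.02 for LA and 0.53 for both. Its LPS array lay 2.19-fold above medium, and its array with both agents 4.14-fold below the LPS array, a larger fold than that of Psmb8. The chaperones Psmd5 and Psmd9 differed by -0.16 and -0.17 with LPS. The core assembly chaperones Psmg3, Psmg1 and Psmg4 differed by 0.87, 0.58 and 0.01 when LA was added to LPS. Psmg2, the partner of Psmg1, was well above background only on the arrays with LA, at least 1.94-fold higher with LA than in medium and at least 1.17-fold higher with both agents than with LPS; these bounds take the lowest signal well above background as the level of the dim array. Psmf1, an inhibitor of the core, had levels of -2.15, -2.11, -1.85 and -2.89 by its brighter probe, and for LPS with LA against LA its probes gave -1.04 and 0.56. It was the only member that passed 2-fold in that comparison, where 1.5% of all genes were at least 2-fold lower.

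The other activators split. Psme3, which makes the nuclear PA28 ring, stayed between 7.92 and 8.18 on the 4 arrays. Psme4, the activator PA200, had levels of 2.52, 3.20, 1.98 and 1.94, with a difference of 0.68 for LPS against medium and -1.26 for LPS with LA against LPS. Its other probe gave 0.32 and -0.81. Psma8, a core subunit of the testis, was dim, with levels of -3.00, -3.45, -3.14 and -3.02, and Psmb11, a core subunit of the thymus, was not well above background on any array. Of the genes that matched by symbol and were given no role, Psme3ip1 had levels of 2.17, 1.67, 1.83 and 2.05. The meiotic factor Psmc3ip differed by 0.78 between LA and medium, was at least 1.13-fold lower with LPS than in medium and at least 2.86-fold lower with both agents than with LA.

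With LA alone, few proteasome genes were far from medium. Of 48 measured members, 5 were at least 1.5-fold lower (Psmc6 at -0.91, Psmb8 at -0.86, Psme2b at -0.67, Psmb9 at -0.64 and Psmb7 at -0.63) and 1 higher (Psmc3ip), where 10.8% and 11.2% of all genes were. On the authors' deposited values 2 were lower and 0 higher, where 7.02% and 16.7% of all genes were. At 2-fold there were 0 lower and 0 higher, beside 3.33% and 3.12% of all genes. The next lowest were Psmb6 (-0.56), Psme4 (-0.54) and Psma7 (-0.53), and the highest of those above background on every array were Psmg3 (0.36), Psmf1 (0.29) and Psmd3 (0.26). Psmf1 gave -0.12 when its probes were averaged. Between LPS with LA and LA, 0 of 48 members were at least 1.5-fold or 2-fold higher, where 4.07% and 0.906% of all genes were, and 1 was lower (Psmf1), where 5.35% and 1.5% were; with normexp or the mean of its probes Psmf1 was not. Psmd14 (-0.58) and Psmd10 (-0.49) followed, and the highest were Psmg1 (0.50), Psmd1 (0.47, with other probes down to -0.03) and Psme3ip1 (0.22).

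Each immunoproteasome catalytic subunit was then set against the constitutive subunit it replaces, as the difference of their 2 differences. Psmb8 over Psmb5 gained 0.64 with LPS, a 1.56-fold change of the ratio, and lost 2.72-fold (-1.45) when LA was added to LPS. Psmb9 over Psmb6 differed by 0.10 with LPS, where Psmb9 was higher by 1.11 and Psmb6 by 1.01, and by -0.59 when LA was added. Psmb10 over Psmb7 differed by 0.35 and 0.15, the second of which was -0.0087 with normexp background correction. With LA alone the 3 pairs differed by -0.65, -0.08 and 0.42. Relative to medium, the array with both agents stood at -0.81 for Psmb8 over Psmb5, -0.49 for Psmb9 over Psmb6 and 0.49 for Psmb10 over Psmb7, so that the 3 pairs did not share a direction. These are signals of different probes, so they give changes of a ratio and not the ratio itself.

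**Figure D3:**
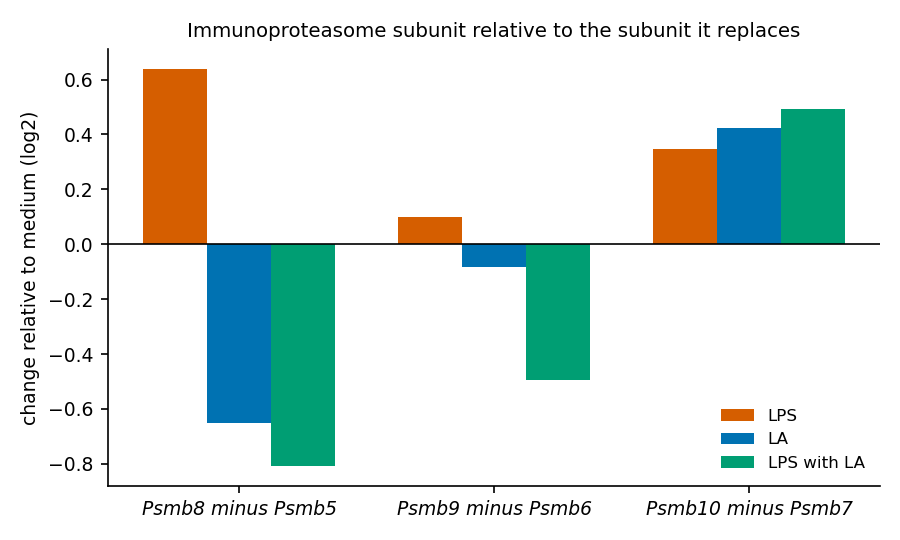
Change relative to medium of each immunoproteasome catalytic subunit minus the change of the subunit it replaces (y axis, log2; 1 bar per treated array, no error bar because each group is 1 array). Psmb8 over Psmb5 stands at 0.64 with LPS and at -0.81 with LPS and LA, while Psmb10 over Psmb7 is above 0 on all 3 arrays.

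The LA difference measured with LPS minus the one measured without LPS shows how far the arrays depart from adding the single agents. It was -1.49 for Psmb9, -1.01 for Psmb10, -1.0 for Psmb8 and -0.97 for Psme1, and -1.52 for Psme2b. The immunoproteasome median was -1.01, beside -0.40 for the constitutive subunits, -0.68 for the 20S core, -0.00 for the 19S particle and -0.02 for all genes. Psmd10 gave the lowest value of all members, -1.62, followed in the core by Psma6 and Psma5 at -1.26 each. The highest were Psme3ip1 (0.73) and Psmg1 (0.69). Of 47 members measured on all 4 arrays, 22 were at least 1.5-fold below the sum and 2 above it, where 19.1% and 19.9% of 13368 genes were. At 2-fold these counts were 8 and 0, beside 9.7% and 8.97% of all genes. On the authors' deposited values 13 were at least 1.5-fold below and 8 above, where 12.2% and 31.3% of all genes were. At 2-fold, 3 of 47 were below on those values, where 6.33% of all genes were, so that count is near the share over all genes. The LA differences with and without LPS use separate arrays; the comparisons of LPS with medium and of LPS with LA with LPS share the LPS array, so a high value of that array moves both in opposite directions.

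**Figure D4:**
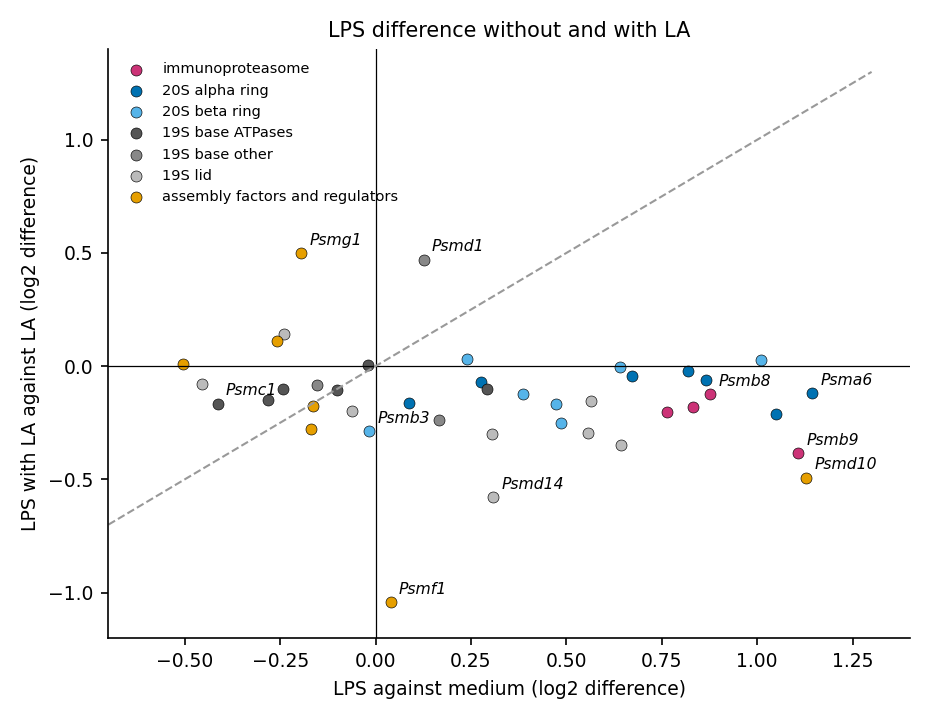
LPS difference of the proteasome genes, coloured by role, without LA (x axis, LPS against medium, log2) and with LA (y axis, LPS with LA against LA, log2), with the dashed line where both are equal. The immunoproteasome genes lie between 0.76 and 1.11 on the x axis and between -0.38 and -0.12 on the y axis.

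Genes around the proteasome were taken from 4 lists, chosen with earlier results of these data known. The interferon list holds the receptors, kinases and factors that act on immunoproteasome genes. Irf1, a factor that binds the ISRE, had levels of 2.81 in medium, 5.87 with LPS, 2.53 for LA and 2.74 for both. Its LPS array alone was high, by 8.33-fold over medium. With LPS, 5 of 12 measured genes of the list were at least 2-fold higher (Irf1, Stat2, Jak2, Irf9 and Irf2) and 1 at least 2-fold lower (Ifngr1, a chain of the interferon gamma receptor, -1.65), where 8.14% and 7.5% of all genes were. The differences of Stat2, Jak2, Irf9 and Irf2 were 2.18, 2.05, 1.06 and 1.0. The authors' scaling shifts the median of all genes by -0.24 in this comparison, and Irf9 and Irf2 lie less than 0.24 above 2-fold. When LA was added to LPS, 6 were at least 2-fold lower, Irf1 by -3.13, Stat2 by -3.07, Jak2 by -2.81, Irf9 by -1.39, Ifnar2 by -1.23 and Irf2 by -1.09, and Ifngr1 was higher by 1.98; 12.5% of all genes were at least 2-fold lower and 11.5% higher. That scaling shifts the median of all genes by 0.43 when LA was added to LPS, and Irf9, Ifnar2 and Irf2 lie less than 0.43 beyond 2-fold. Stat2 was also 2.03-fold lower with LA alone. Ifnb1, the interferon beta gene, was above background only with LPS, at least 220-fold higher than in medium and at least 243-fold higher than with both agents.

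Class I peptide loading genes, which act after the proteasome, had a median of 0.73 with LPS and -1.34 between LPS with LA and LPS, over 12 measured. With LPS 4 were at least 2-fold higher, where 8.14% of all genes were: Nlrc5, an activator of class I genes (2.19), Tap1, which pumps peptides into the endoplasmic reticulum and shares its promoter region with Psmb9 (1.17), and the peptide editors Tapbpl (1.17) and Tapbp (1.16). Tap1 had levels of 0.47, 1.64, -0.08 and 0.04, the same order of high and low arrays as Psmb9 apart from its 2 LA arrays. When LA was added to LPS, 8 of 12 were at least 2-fold lower, where 12.5% of all genes were. These counts hold for the main scaling. The authors' scaling shifts the median of all genes by -0.24 with LPS and by 0.43 when LA was added to LPS. Tap1, Tapbpl and Tapbp lie less than 0.24 above 2-fold with LPS. Tap2 (-1.29), B2m (-1.38) and H2-D1 (-1.16) lie less than 0.43 beyond 2-fold when LA was added. The lowest LPS differences were those of the trimming peptidase Erap1 (-0.56) and the chaperone Canx (-0.02).

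**Figure D5:**
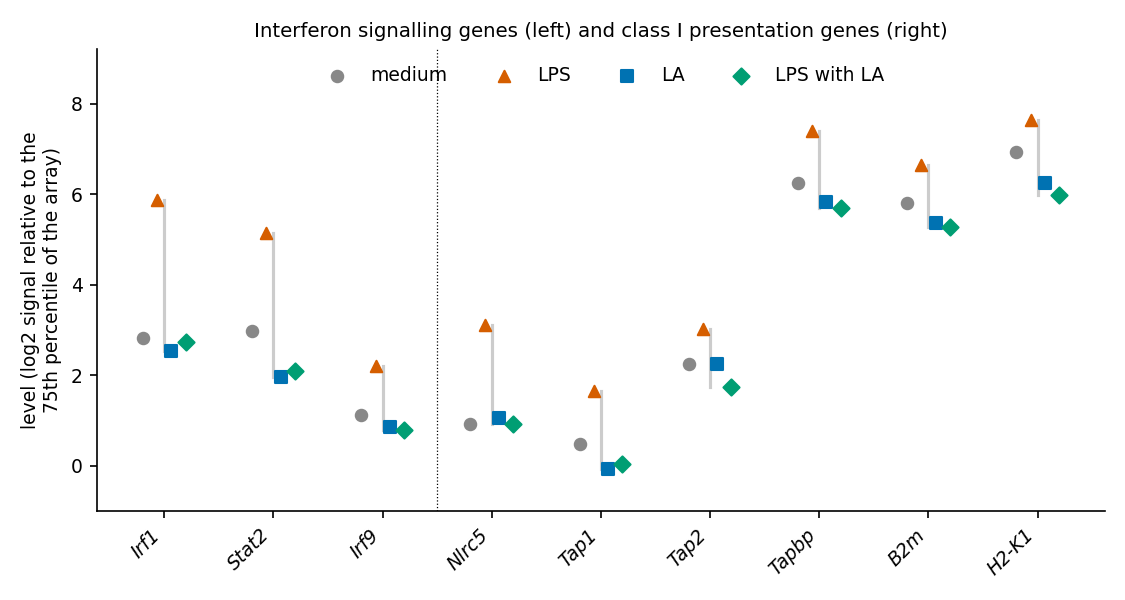
Levels of 3 interferon signalling genes and 6 class I presentation genes on the 4 arrays (y axis, log2 signal over that array's 75th percentile; 1 point per array, no error bar because each group is 1 array). The LPS point is the highest for all 9 genes; Irf1 has 5.87 with LPS and 2.74 with LPS and LA.

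The ubiquitin list had 10 measured genes with a median of 1.08 for LPS against medium and -1.13 for LPS with LA against LPS. With LPS 5 of 10 were at least 2-fold higher, where 8.14% of all genes were. They were Isg15, a ubiquitin-like modifier, and the enzymes Usp18, Herc6, Uba7 and Ube2l6 that attach or remove it. Isg15 itself was higher by 4.20 and Usp18, which removes it, by 3.68. The polyubiquitin gene Ubb and the ubiquitin fusion gene Rps27a had the lowest differences, 0.08 and 0.20, and Ubd was not well above background. When LA was added to LPS, 6 of 10 were at least 2-fold lower, with -5.69 for Isg15, where 12.5% of all genes were. The authors' scaling shifts the median of all genes by 0.43 there, and Ube2l6 (-1.24) and Uba1 (-1.03) lie less than 0.43 beyond 2-fold.

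Assembly factors outside the Psm names, associated proteins, shuttles and the factors that control proteasome genes gave another picture. Their median was 0.05 with LPS over 20 measured genes, with 0 at least 2-fold higher and 3 lower, where 8.14% and 7.5% of all genes were. The highest were Zfand5 (0.83), which binds the 19S particle, and Txnl1 (0.63). The lowest were Ddi2 (-1.81), the protease that activates Nfe2l1, and the shuttle Ubqln4 (-1.19). Ddi2 had levels of -0.58, -2.4, -0.02 and 0.03, so it was low on the LPS array alone. Pomp, the chaperone that matures the immunoproteasome, had levels of 4.44, 4.58, 4.22 and 4.05, and differed by 0.13 with LPS. Nfe2l1 and Nfe2l2, which drive proteasome genes under stress, differed by 0.50 and 0.52.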

How the data were processed

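RNA of 4 dendritic cell samples, 1 per group, was labelled with Cy3 and hybridised to one-colour Agilent arrays, all on 1 slide and in 1 scan. The deposited intensities were extracted by the authors with Agilent Feature Extraction 12.0.3.1, per the file headers (11.5.1.1, per the submitters' processing notes); the processed signal is already background-corrected. The authors' deposited value table holds the same intensity multiplied by 1 factor per array, linear and not centred, for 31529 spots; it was used as an alternative. From the processed signal, log2 values minus the array's 75th percentile were computed with Python 3.11.15, numpy 2.4.6 and pandas 2.3.3. Control and outlier spots were left out, spots of a probe were averaged, and a gene took its brightest probe by the mean over arrays. Of 56605 probes, 33767 matched 1 RefSeq symbol through the accession, 22838 none and 0 several. Genes well above background on both arrays of a comparison counted as measured (on all 4 for the difference of differences); calls used 1.5-fold and 2-fold. A bound sets the bright array's value against the dim array's lowest signal among probes well above background, or the probe's own where that is higher. A constant per array shifts every difference, so the scaling bears on directions of small differences. Simulated arrays, made from the medium array with spot noise and planted folds of single genes, showed only that the code recovers such folds.

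Genes named were Psmb8, Psmb9, Psmb10, Psme1, Psme2 and their counterparts, the 3 highest and 3 lowest other members of each comparison, every member at least 1.5-fold apart, members without a measured probe or with disagreeing probes, the 2 highest and 2 lowest of each pathway list for LPS, and interferon genes at least 2-fold apart; 1 listed gene is not reported here. Other named members complete a role. The members and lists were chosen with earlier results of these data known. Alternatives were another scaling, quantile normalization, normexp with an offset of 50 (limma 3.58.1, R 4.3.3, on the median signal), other probe rules and filters, the authors' table, Psme2b as a further immunoproteasome gene and the 20S core as the constitutive set.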

Additional observations from a re-analysis of the deposited data

Results flagged for a closer look

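Some proteasome genes differed in opposite directions under the same agent, depending on the other agent; with 1 array per group the difference was not tested. Psmb9 was higher with LPS in the absence of LA, by 1.11 log2 units, and lower with LPS in its presence, at -0.38. Psmd10, the 19S chaperone gankyrin, gave 1.13 without LA and -0.49 with it. Psmd8, a subunit of the 19S lid, gave 0.64 and -0.35. Psme3ip1, which was given no role, was lower with LA without LPS, at -0.35, and higher with LA in the presence of LPS, at 0.38. Dixon's rule for single outlying samples does not apply to groups of 1 array.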

How the results depend on the processing

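No paired analysis was possible because each group has 1 array, and no replicate could be left out. Compared under the alternatives were the immunoproteasome and constitutive medians, their difference, the difference of 20S core and 19S particle, and the subunit pairs. Of these, 287 values under an alternative stayed within the SD between probes of the main value and 8 moved by more. For the subunit pairs, that SD was multiplied by the square root of 2. Many of these values could not move. The genes of these sets were above background on every array, so the filters on dim probes repeated the main values. A constant per array cancels in the differences of medians and in the pairs. The 287 is therefore no measure of how firm the results are. The sign changed in 2 of these 295 values, both with normexp and both near 0: Psmb10 over Psmb7 went to -0.0087 for LPS with LA against LPS and to -0.073 for LPS with LA against LA. The 19S particle median is not among these values and changed sign under several alternatives. For LPS with LA against LPS it was 0.11 with quantile normalization and 0.15 on the authors' table. For LPS against medium it was 0.04 with scaling to the median. The immunoproteasome median moved for LPS against medium to 0.58 with quantile normalization and 0.62 on the authors' table, and for LPS with LA against LPS to -1.16 and -1.22. The constitutive median moved to 0.056 for LPS against medium on the authors' table, and for LPS with LA against LPS to -0.34 with quantile normalization and -0.39 on the authors' table. The immunoproteasome median minus the constitutive one moved to 0.29 for LPS against medium with the 20S core alone as constitutive. That contrast ranged from 0.29 to 0.62 for LPS against medium and from -1.05 to -0.66 for LPS with LA against LPS over the alternatives. For single genes and counts, 1809 values stayed and 234 moved. The authors' scaling shifts the median of all genes by -0.24 for LPS against medium and 0.43 for LPS with LA against LPS. With it, 9 members were at least 1.5-fold higher with LPS, where 10.4% of all genes were. When LA was added to LPS, 17 were lower, where 12% of all genes were. Over all alternatives, 6 to 17 members were at least 1.5-fold higher with LPS and 17 to 27 lower when LA was added to LPS. Of all genes, 10.4% to 17.6% and 12% to 28.9% were. The 6, of 47 members, came with quantile normalization, where 14.5% of all genes were. At 2-fold the member counts ran from 1 to 6 and from 9 to 19, where 5.02% to 9% and 6.89% to 14.2% of all genes were. For LA against medium, 2 to 8 members were at least 1.5-fold lower, where 5.57% to 12.9% of all genes were. For the LA difference with LPS minus without, 13 to 22 were at least 1.5-fold lower and 1 to 8 higher, and 3 to 11 at least 2-fold lower. Of all genes, 11.9% to 23.1%, 11.4% to 31.3% and 5.4% to 14.3% were. Signal over background limits Psmg2, Psmb11 and Psmc3ip, which were dim on some or all arrays.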
